A study of Rattus norvegicus with 6 samples.

Results

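The genes described here are the corticosteroid receptors, the enzymes that interconvert active and inactive corticosteroid, and a set of genes that glucocorticoid induces in many tissues, measured in the rat jejunum. The members were 10 genes (Nr3c1, Nr3c2, Hsd11b1, Hsd11b2, Fkbp5, Zbtb16, Tsc22d3, Sgk1, Klf9 and Per1), of 13837 gene symbols that could be named through a RefSeq accession on the array. Every probe of a member was kept, which gave 18 probes of 41012, and all 18 passed the filter on dim probes, as did 31369 probes in all. No measured value entered the rule that defines the members, but they were chosen with earlier results of these data known. Of the 10 genes, 7 were covered by more than 1 probe.

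All rats were male Sprague-Dawley animals of 6 weeks, kept at 25°C and 60% humidity before the experiment. The S3d rats were then exposed on 3 days to 35°C and shaking at 0.1 g for 2 h per day, and the control rats were not. Total RNA of the jejunum was hybridised to 1-colour Agilent rat arrays, 3 per group. By the labels a sample holds RNA of 3 pooled rats and a group 10 rats, but the methods give another group size, so the rats behind an array are not certain, and p-values measure the spread between these pools. The hour of sampling per group was not given in the sources used here.

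Corticosterone, the main glucocorticoid of rats, binds the glucocorticoid receptor in the cytosol, where the receptor is held by Hsp90 and its partner proteins. The receptor with its hormone moves to the nucleus, binds DNA at glucocorticoid response elements and raises the transcription of genes such as Fkbp5, Tsc22d3 and Per1. In epithelia of the gut the mineralocorticoid receptor shares these ligands, and the 11-beta hydroxysteroid dehydrogenases set how much active hormone reaches either receptor.

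The 2 kinds of deposited file carried opposite group labels. Each of the 6 columns of the normalized table ranked its probes like the scanner file that carries the same number in the opposite group (rho 1.00000 by Spearman in 6 of 6, across probes), whereas rho with the scanner file of its own sample lay between 0.942 and 0.953. No sample was reassigned. Unless stated otherwise, a level is the processed signal of the scanner file on the log2 scale, from which the 75th percentile of that array was subtracted, and a difference is the mean level of the S3d-labelled scanner files minus that of the control-labelled ones. The direction of these differences is opposite to that of the normalized table by its own labels and to that of the study, so the values of the table are given beside them. Which source carries the right labels was not settled by these files, and every direction below holds for a set of labels and not for the stress itself.

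The arrays also differed as a whole. Processed signals had a 75th percentile of 414.8 to 430.0 in the control-labelled scanner files and of 1457.7 to 1558.3 in the S3d-labelled ones, with 69.1% to 73.7% and 77.5% to 81.5% of spots well above background. Each group had a slide of its own, with 450 days between the scans, so a slide or scan effect and a group effect cannot be told apart. Of all tested probes, 74.0% passed an adjusted p of 0.05 in limma (39.5% with higher and 34.5% with lower S3d-labelled levels), and the median difference over all tested probes was 0.08 on the log2 scale. A call is therefore the usual state of a probe in this comparison.

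Of the 18 member probes 14 were called (77.8%), a share near the 74.0% of all tested probes. By direction, 11 member probes were lower (61.1%, beside 34.5% of all tested probes) and 3 higher (16.7%, beside 39.5%). With a fold of at least 1.5 required as well, 13 member probes were called (52.5% of all tested probes were), 11 of them lower (61.1%, beside 23.3% lower and 29.2% higher among all tested probes). The groups did not overlap at 16 of the 18 probes (88.9%, against 78.9% of all tested probes). The median difference of the member probes was -0.94, and the 3 probes that were higher belonged to Nr3c1 and Hsd11b1.

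**Figure D1:**
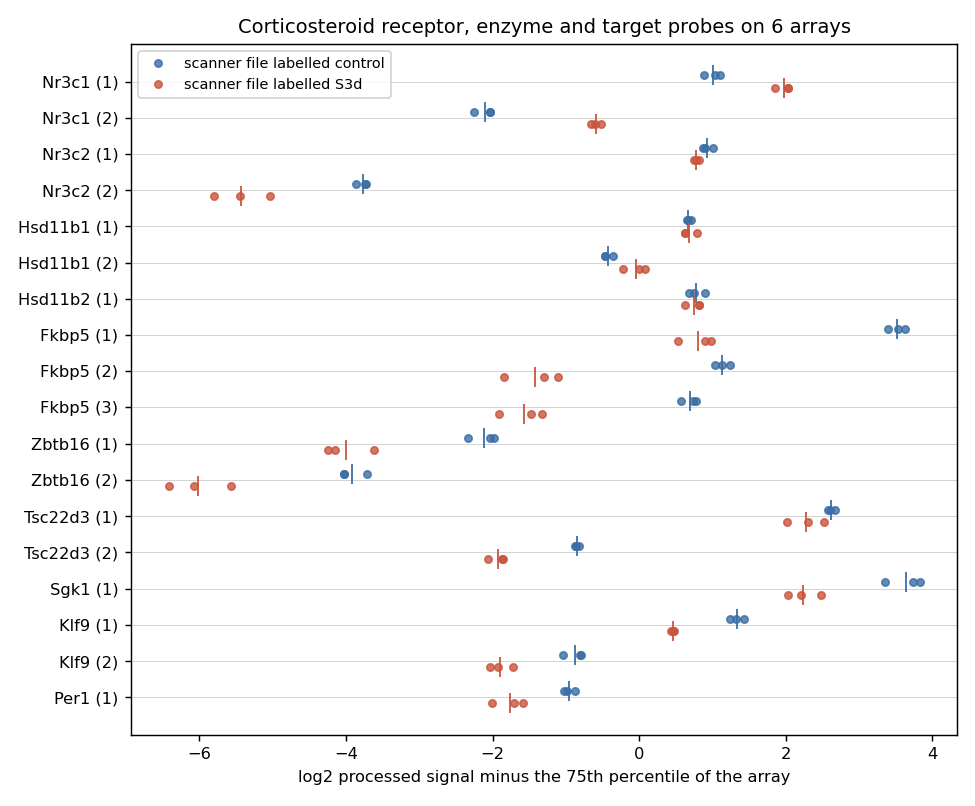
Level of each member probe on each of the 6 arrays, on the log2 scale relative to the 75th percentile of that array. Points are arrays, coloured by the label of the scanner file, vertical ticks are the group means (n = 3), and probes of a gene are numbered from the brighter to the dimmer. The arrays labelled S3d lie below those labelled control at all 11 probes of Fkbp5, Zbtb16, Tsc22d3, Sgk1, Klf9 and Per1 and above them at both probes of Nr3c1.

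Nr3c1 encodes the glucocorticoid receptor. Its brighter probe, A_44_P477376, gave levels of 0.89, 1.10 and 1.04 in the control-labelled replicates 1 to 3 and of 2.03, 2.03 and 1.86 in the S3d-labelled ones. The dimmer probe, A_44_P1003794, gave -2.25, -2.03 and -2.03 against -0.60, -0.52 and -0.65. At both probes every array labelled S3d was above every array labelled control. The differences were 0.96 (SE 0.09, 1.94-fold, limma adjusted p = 1.7e-04) and 1.51 (SE 0.09, 2.84-fold, adjusted p = 3.2e-05), and both kept their call with any 1 array left out. After normexp background correction both lost it, at 1.16 (adjusted p = 0.058) and 0.59 (adjusted p = 0.28). In the normalized table by its own labels the same probes gave log2 differences of -1.04 (adjusted p = 1.7e-04) and -1.43 (adjusted p = 4.4e-05), so that the receptor was lower in S3d there.

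Nr3c2 encodes the mineralocorticoid receptor, and its 2 probes differed in size. The brighter probe, A_43_P15261, had levels of 0.90, 1.01 and 0.87 on the control-labelled arrays and 0.81, 0.77 and 0.75 on those labelled S3d. These groups lay close together without overlap, and the difference of -0.15 (95% interval -0.31 to 0.01, adjusted p = 0.081) did not pass the test. The dimmer probe, A_44_P158441, had levels of -3.86, -3.72 and -3.74 against -5.04, -5.45 and -5.80, a difference of -1.66 (SE 0.19, 3.15-fold lower, adjusted p = 4.2e-04). Its processed signals before scaling were low, at 28.5, 32.4 and 32.2 against 44.3, 35.6 and 28. With no scaling the difference of this probe was 0.19 (adjusted p = 0.32). The difference between the 2 probes, 1.51 on the log2 scale (SE 0.18, adjusted p = 3.0e-04), was itself larger than the spread between arrays, so a single value for the gene depends on the probe. The table gave 0.13 (adjusted p = 0.13) and 2.20 (adjusted p = 3.2e-04) by its own labels.

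Hsd11b1 encodes the reductase that makes active glucocorticoid from its inactive form, and Hsd11b2 the dehydrogenase that inactivates it in epithelia that respond to mineralocorticoid. The single Hsd11b2 probe, A_44_P545193, had levels of 0.68, 0.75 and 0.90 on the control-labelled arrays and 0.81, 0.81 and 0.62 on those labelled S3d. The groups overlapped, and the difference of -0.03 had a 95% interval of -0.26 to 0.19 (adjusted p = 0.76). The brighter Hsd11b1 probe, A_44_P426345, had levels of 0.71, 0.65 and 0.66 against 0.62, 0.63 and 0.79. These groups overlapped as well, with a difference of 0.01 (95% interval -0.17 to 0.18, adjusted p = 0.95). The dimmer Hsd11b1 probe, A_44_P1018957, had levels of -0.36, -0.47 and -0.46 against -0.22, 0.00 and 0.08, and here all arrays labelled S3d were higher, by 0.38 (SE 0.09, adjusted p = 0.011). Hsd11b2 and the brighter Hsd11b1 probe had the smallest differences of the 18 member probes, and the table gave 0.01 for Hsd11b2 and -0.03 and -0.39 for the 2 probes of Hsd11b1.

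The other 6 members are genes that glucocorticoid induces, and all 11 of their probes were lower on the arrays labelled S3d, without overlap between the groups, although 6 of the 11 had the other sign with no scaling between arrays and the brighter Tsc22d3 probe also after normexp background correction. Of these probes 10 passed the test, each of the 6 genes had at least 1 called probe, and the median difference over the 11 probes was -1.40. In the normalized table all 11 had the opposite sign by its own labels, and 10 of them were called higher in S3d, where 35.3% of all tested probes were called higher and 70.1% were called in all. The table holds the same arrays with the group labels exchanged, so the turned signs are no second measurement. In bulk jejunum fewer cells of a type and less RNA per cell cannot be told apart.

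**Figure D2:**
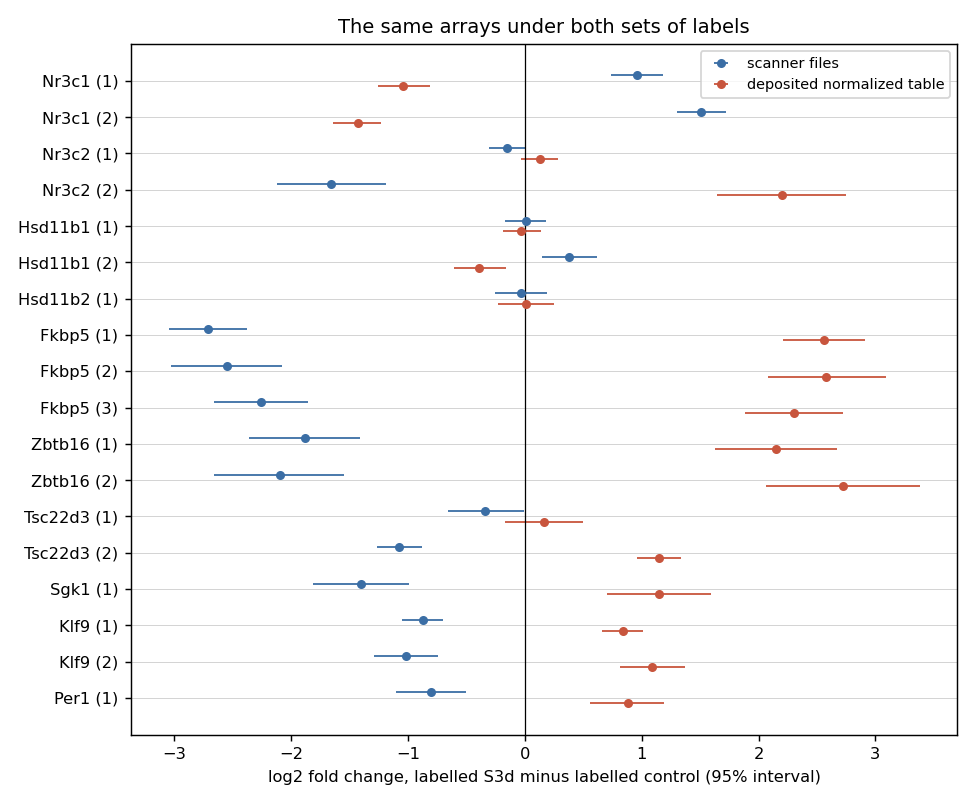
Log2 difference of each member probe, labelled S3d minus labelled control, in the scanner files and in the deposited normalized table, each by its own labels, with 95% intervals from limma (n = 3 arrays per group). The 2 sources hold the same arrays with exchanged labels and so mirror each other around 0, from -2.71 against 2.56 at the brightest Fkbp5 probe to 1.51 against -1.43 at the dimmer Nr3c1 probe.

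Fkbp5 encodes an immunophilin of the Hsp90 complex that lowers the affinity of the receptor for its hormone, and it is among the genes most widely used as a readout of glucocorticoid. With the 75th percentile scaling it had the largest differences of all members. The dimmer Zbtb16 probe had larger values after quantile normalization (-2.71, against -2.59 at most for Fkbp5), in the table and after normexp (-2.32 against -2.11). That Zbtb16 probe was well above background on only 1 of the 3 arrays labelled S3d, so it cannot be ranked by size. The brightest Fkbp5 probe, A_44_P532249, had levels of 3.39, 3.53 and 3.63 on the control-labelled arrays and 0.53, 0.98 and 0.90 on those labelled S3d. The difference was -2.71 (SE 0.14, 6.56-fold lower, adjusted p = 2.3e-05), and only 0.7% of all tested probes had a difference as low or lower. A second probe, A_44_P519167, had levels of 1.04, 1.13 and 1.24 against -1.85, -1.11 and -1.30, a difference of -2.55 (SE 0.19, 5.87-fold lower, adjusted p = 8.1e-05). The dimmest probe, A_43_P18969, gave 0.57, 0.78 and 0.73 against -1.91, -1.33 and -1.47, a difference of -2.26 (SE 0.16, 4.8-fold lower, adjusted p = 6.6e-05). The table gave 2.56, 2.58 and 2.30 for the 3 probes by its own labels.

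For the brightest Fkbp5 probe the direction did not come from the scaling between arrays. Its processed signal before scaling was 4350, 4930 and 5320 on the control-labelled arrays and 2110, 3060 and 2920 on those labelled S3d, although the latter arrays were the brighter ones as a whole. Without any scaling its difference was -0.87 (adjusted p = 0.0021) and that of the second probe -0.71 (adjusted p = 0.019). The dimmest Fkbp5 probe then lost its call (-0.42, adjusted p = 0.072), as did both Zbtb16 probes (-0.04 and -0.26, adjusted p = 0.84 and 0.27).

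Zbtb16 encodes a zinc finger repressor of transcription (PLZF). The brighter probe, A_44_P366142, had levels of -2.34, -2.04 and -1.98 on the control-labelled arrays and -3.61, -4.25 and -4.15 on those labelled S3d, a difference of -1.88 (SE 0.19, 3.69-fold lower, adjusted p = 2.6e-04). The dimmer probe, A_44_P189428, had levels of -4.02, -4.03 and -3.71 against -5.57, -6.42 and -6.07, a difference of -2.10 (SE 0.23, adjusted p = 3.2e-04). This second probe was well above background on only 1 of the 3 arrays labelled S3d, so its low levels are the least certain of the members. It is among the 11 member probes called lower, and it entered the test through the arrays labelled control alone. The size of its difference is therefore not exact. The table gave 2.15 (adjusted p = 2.7e-04) and 2.72 (adjusted p = 2.8e-04). The difference between the 2 probes, 0.22, did not pass the test (adjusted p = 0.11).

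Sgk1 encodes a kinase that raises sodium uptake through epithelial channels, and both corticosteroid receptors induce it. Its probe, A_44_P313542, had levels of 3.36, 3.73 and 3.83 on the control-labelled arrays and 2.03, 2.48 and 2.21 on those labelled S3d. The difference was -1.40 (SE 0.17, 2.64-fold lower, adjusted p = 5.0e-04), and the table gave 1.15 (adjusted p = 0.0019).

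Tsc22d3 encodes the glucocorticoid-induced leucine zipper protein, which binds and restrains inflammatory transcription factors. The 2 probes of Tsc22d3 did not move alike. The brighter probe, A_42_P822638, had levels of 2.60, 2.58 and 2.67 on the control-labelled arrays and 2.52, 2.30 and 2.02 on those labelled S3d, and its difference of -0.34 (95% interval -0.66 to -0.01, adjusted p = 0.06) did not pass the test. The dimmer probe, A_44_P346807, had levels of -0.82, -0.88 and -0.86 against -1.86, -1.87 and -2.06, a difference of -1.08 (SE 0.08, 2.11-fold lower, adjusted p = 6.8e-05). The probes differed from each other by 0.74 on the log2 scale (SE 0.09, adjusted p = 3.6e-04). Tsc22d3 has several transcripts with separate starts, and which of them each probe reads was not determined. Without the array labelled S3d 1 the brighter probe also passed, at -0.46.

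Klf9 encodes a zinc finger factor that glucocorticoid induces in many cell types. The brighter probe, A_43_P13064, had levels of 1.24, 1.43 and 1.32 on the control-labelled arrays and 0.46, 0.43 and 0.48 on those labelled S3d, a difference of -0.87 (SE 0.07, 1.83-fold lower, adjusted p = 1.1e-04). The dimmer probe, A_44_P322590, had levels of -1.04, -0.79 and -0.81 against -1.92, -2.04 and -1.72, a difference of -1.02 (SE 0.11, 2.02-fold lower, adjusted p = 3.7e-04). Both Klf9 probes were lower by about the same amount, with 0.14 between them (adjusted p = 0.17), and the table gave 0.84 and 1.09.

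Per1 encodes a repressor of the circadian clock whose promoter also answers to glucocorticoid. Its probe, A_44_P114034, had levels of -0.99, -1.02 and -0.88 on the control-labelled arrays and -2.01, -1.71 and -1.58 on those labelled S3d, a difference of -0.80 (SE 0.12, 1.74-fold lower, adjusted p = 0.0015). The table gave 0.88 (adjusted p = 0.0013), and a part of the sampling hour in it was not tested.

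Probes of 1 gene often differed from each other on these arrays. When the difference between a gene's brightest probe and each other probe was fitted in the same way, 80.1% of 3237 such pairs over 2626 genes were called, a comparison chosen after the member values were seen. Among the members the pairs of Nr3c1 (-0.55, adjusted p = 2.1e-04), Nr3c2, Hsd11b1 (-0.38, adjusted p = 0.0025), Tsc22d3 and the brightest and dimmest Fkbp5 probes (-0.45, adjusted p = 9.8e-04) were called. Averaged over its probes on each array, Nr3c1 differed by 1.23 (SE 0.09), Fkbp5 by -2.51 (SE 0.16), Zbtb16 by -1.99 (SE 0.21), Klf9 by -0.94 (SE 0.09), Nr3c2 by -0.90 (SE 0.11) and Tsc22d3 by -0.71 (SE 0.10, adjusted p = 0.0012). On this average Hsd11b1 did not pass the test (0.19, SE 0.08, adjusted p = 0.069).

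The sequences before 4 start sites are shown, the single window of Fkbp5 because all 3 of its probes differed widely, and the windows of Sgk1 and Tsc22d3 that hold a TATAAA match. They are the 250 bases before a RefSeq start in the rat assembly GRCr8, which is a later build than the one the array files use, read 5′ to 3′ on the strand of the gene, and capitals mark TATAAA. RefSeq windows were held for 6 of the 10 members, 11 windows in all.
Fkbp5 (GRCr8 chr20:6543556-6543805, minus strand): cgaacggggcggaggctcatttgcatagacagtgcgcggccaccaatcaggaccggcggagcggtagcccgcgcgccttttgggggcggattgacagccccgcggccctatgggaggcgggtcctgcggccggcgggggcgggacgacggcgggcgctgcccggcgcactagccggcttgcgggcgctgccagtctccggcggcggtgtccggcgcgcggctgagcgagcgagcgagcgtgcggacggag
Sgk1 (GRCr8 chr1:24804832-24805081, minus strand): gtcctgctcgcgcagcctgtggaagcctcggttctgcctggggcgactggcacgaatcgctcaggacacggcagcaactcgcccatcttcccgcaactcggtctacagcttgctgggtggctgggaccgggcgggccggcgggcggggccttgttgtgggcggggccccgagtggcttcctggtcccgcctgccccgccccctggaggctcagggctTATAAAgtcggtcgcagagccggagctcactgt
Sgk1 (GRCr8 chr1:24807232-24807481, minus strand): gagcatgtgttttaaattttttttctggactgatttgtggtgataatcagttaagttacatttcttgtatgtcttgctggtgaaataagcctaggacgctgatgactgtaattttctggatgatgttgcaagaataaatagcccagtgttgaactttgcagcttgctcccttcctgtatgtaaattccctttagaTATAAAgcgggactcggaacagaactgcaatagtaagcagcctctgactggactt
Tsc22d3 (GRCr8 chrX:109010035-109010284, minus strand): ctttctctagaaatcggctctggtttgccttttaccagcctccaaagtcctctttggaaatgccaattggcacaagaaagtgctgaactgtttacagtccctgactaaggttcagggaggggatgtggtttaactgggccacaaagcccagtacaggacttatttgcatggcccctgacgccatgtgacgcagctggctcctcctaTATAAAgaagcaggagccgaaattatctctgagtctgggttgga

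On either strand, TATAAA was found in 3 of the 11 member windows, at 33 and 55 bases before the start in the 2 Sgk1 windows and 44 bases before it in the Tsc22d3 window, and in 12.9% of all 33469 RefSeq windows of this length. The Fkbp5 window held no match. A glucocorticoid response element, searched as GNACA and TGTNC with 3 bases between them, was in none of the member windows and in 0.373% of all windows. The half-site AGAACA, which can lie within the response element, was in 17.5% of all windows, the E-box CACGTG of clock factors in 5.59% and the cyclic AMP response element TGACGTCA in 1.59%, and none of the 3 was in a member window. A missing match says only that these letters are not in this window.

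The scaling between arrays moved the member values, because the arrays labelled S3d were brighter. The median difference over all tested probes was 0.01 after quantile normalization, -0.09 with median centring, 1.93 with no scaling and -0.69 after normexp, and with no scaling 98.1% of the called probes were higher, so that directions there are read relative to the median. Relative to this median, all 14 called member probes kept their sign with quantile normalization and 13 of 14 did after normexp, where the brighter Klf9 probe stood at 0.17. Median centring and no scaling shift each array by a constant, so values relative to the median are by construction those of the 75th percentile scaling. Relative to the median, the 3 Fkbp5 probes lay at -2.57, -2.60 and -2.31 after quantile normalization and at -1.37, -1.43 and -1.19 after normexp. Normexp left 4 of the 18 member probes called, against 5.59% of all tested probes, and these were the 3 Fkbp5 probes and the dimmer Tsc22d3 probe.

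**Figure D3:**
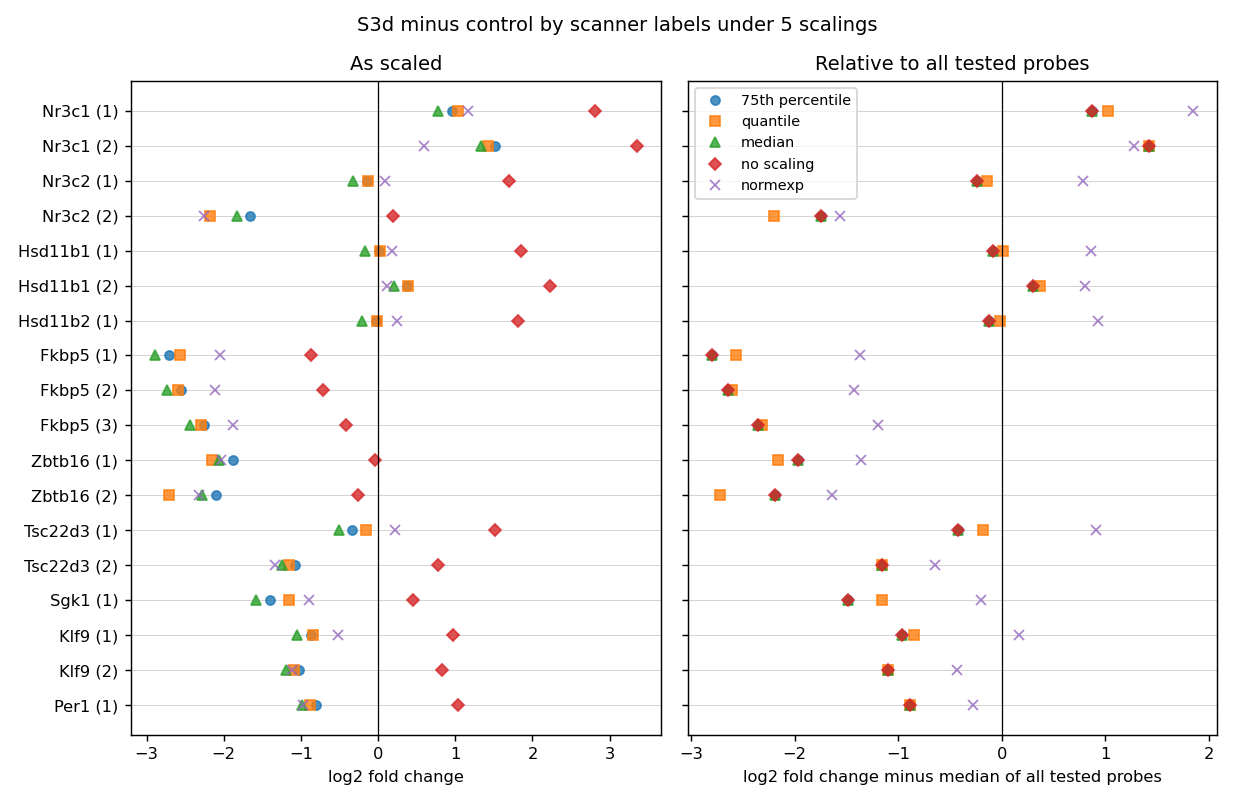
Log2 difference of each member probe, S3d minus control by scanner labels, under 5 ways of scaling or background correction, as obtained (left) and minus the median of all tested probes under the same setting (right). With no scaling 9 of the 18 probes change sign against the 75th percentile scaling on the left, and on the right Fkbp5, Zbtb16 and the dimmer Tsc22d3 probe lie below 0 and both Nr3c1 probes above 0; the 75th percentile, median and no scaling settings coincide there by construction.

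The differences also ran with the brightness of a probe. In 20 bins of mean level over all tested probes, the median difference went from 1.81 in the dimmest bin to -0.64 in the brightest, and 65.4% to 88.0% of the probes in a bin were called. Set against the median of their own bin, the 3 Fkbp5 probes lay at -2.53, -2.53 and -2.26, the 2 Zbtb16 probes at -2.05 and -2.53, the dimmer Nr3c2 probe at -2.02 and Sgk1 at -1.07. The dim Nr3c2 and Zbtb16 probes were thus lower while dim probes in general were higher on the arrays labelled S3d. The Nr3c1 probes lay at 1.07 and 1.40, and the brighter Tsc22d3 probe at -0.15.

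**Figure D4:**
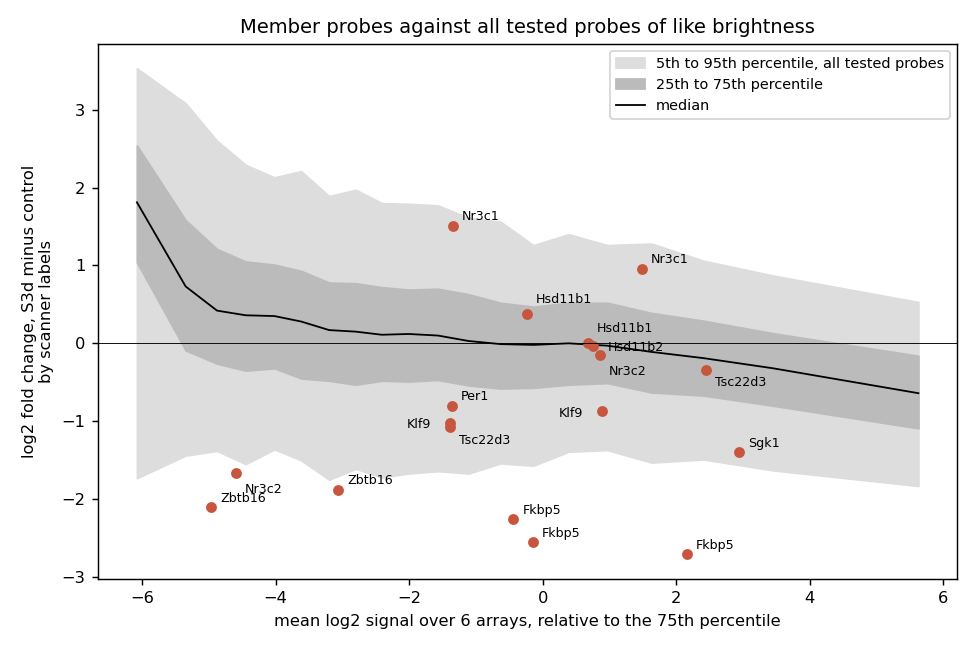
Log2 difference of the 18 member probes, S3d minus control by scanner labels, against the mean log2 level over the 6 arrays, over the median and percentile ranges of all tested probes in 20 bins of mean level. The median of all tested probes falls from 1.81 to -0.64 from the dimmest to the brightest bin, and the probes of Fkbp5 and Zbtb16 and the dimmer Nr3c2 probe lie below the band of the 5th to 95th percentile.

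Receptor chaperones and cofactors hold the receptor ready for hormone or carry its signal to chromatin, and how many of them were lower or higher depended on the normalization. Of 14 tested genes, each by its brightest probe, 7 were lower, 2 higher and 5 not called, with a median difference of -0.22 (-0.10 after quantile normalization) beside 0.08 for all tested probes, of which 34.5% were lower and 39.5% higher. In the normalized table, by its own labels, 5 were higher and 4 lower. Hsp90aa1, the inducible Hsp90 of the cytosol, differed by -1.46 (adjusted p = 1.8e-04), and Stip1, which passes clients from Hsp70 to Hsp90, by -1.28 (adjusted p = 1.4e-04). Smarca4, a chromatin remodelling ATPase, differed by 1.32 (adjusted p = 4.8e-05), and Stub1, a ubiquitin ligase bound to chaperones, by 0.78 (adjusted p = 1.2e-04).

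A longer list of genes that glucocorticoid is known to induce was divided in direction. Of 36 tested, 18 were lower, 10 higher and 8 not called, with a median of -0.23 (-0.04 after quantile normalization), and the table gave 17 higher and 11 lower by its own labels. Slc9a3, the sodium-hydrogen exchanger of the enterocyte brush border, differed by -2.49 (adjusted p = 1.1e-04), and Bcl6, a transcriptional repressor, by -2.17 (adjusted p = 4.3e-05). In the other direction, Glul, which makes glutamine, differed by 1.53 (adjusted p = 2.9e-05) and Klf15, a regulator of amino acid use, by 1.51 (adjusted p = 0.0026). Klf9 and Klf15, both induced by glucocorticoid, therefore differed in opposite directions. Abcb1a, an efflux pump of the enterocyte, fell outside the rule for named genes and was picked after its value was seen. Its probe was not well above background on any array labelled control (measured mean level -7.03 ± 0.85, SD, n = 3) and had a mean level of 0.06 ± 0.47 (SD, n = 3) on those labelled S3d, which is at least 85.2-fold higher against the lowest signal measured above background. After normexp its log2 difference was 2.06. It is among the 10 higher genes, and it entered the test through the arrays labelled S3d alone.

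Epithelial sodium transport is the main task of the mineralocorticoid receptor, and Sgk1 acts in it. Of 10 tested genes, 4 were higher, 3 lower and 3 not called, with a median of 0.19. Among the 4 higher genes, Scnn1g was well above background on 3 arrays labelled S3d but only 2 labelled control. It entered the test through the former alone. Edn1, which encodes endothelin, differed by 1.10 (adjusted p = 2.0e-04), although it stood at -1.09 after normexp. Usp2, a deubiquitinase that is also a clock output, differed by -0.64 (adjusted p = 9.8e-04). Atp1b1, the beta subunit of the sodium pump, differed by -0.40 (adjusted p = 0.0056), but its sign turned to 0.73 after quantile normalization and to 0.26 after normexp.

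**Figure D5:**
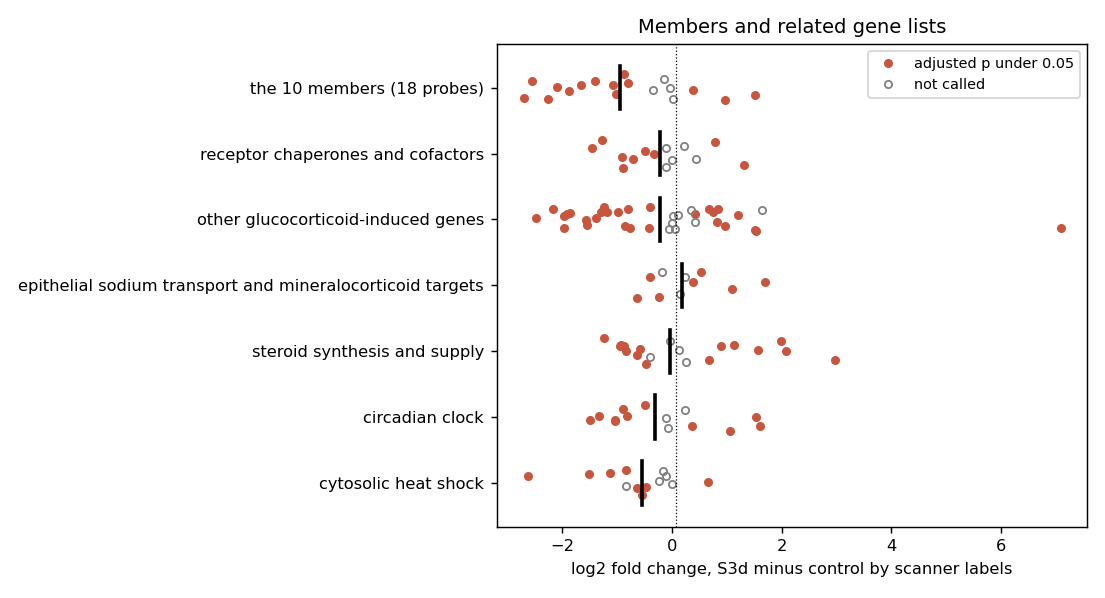
Log2 difference, S3d minus control by scanner labels, of the 18 member probes and of the genes of 6 related lists, each list gene by its brightest probe. Filled points passed an adjusted p of 0.05 in limma, and thick ticks are the medians. The dotted line is the median of all tested probes (0.08). The member median (-0.94) counts every probe of a gene, so it is not in the same unit as the list medians and is not ranked against them. Abcb1a is the point far to the right.

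Of 19 tested genes of steroid synthesis, carriage and release, 8 were lower, 7 higher and 4 not called (median -0.03). Among the 7 higher genes, Cyp21a1 and Crhr1 entered the test through the arrays labelled S3d alone, so the filter fixed their direction. Nr0b2, a repressor of bile acid and steroid enzymes, differed by -1.25 (adjusted p = 0.0031), and Fdxr, which passes electrons to mitochondrial cytochromes, by -0.95 (adjusted p = 2.2e-04). Nr0b1 (1.98, adjusted p = 4.5e-05) and Crhr2, a receptor of urocortins (1.56, adjusted p = 4.4e-05), were higher. After normexp they stood at -0.61 and -1.53, where the median of all tested probes was -0.69. Crhr2 thus fell below that median, and Nr0b1 stayed just above it. The adrenal markers fixed for comparison, which jejunum should lack, had no gene well above background on all 6 arrays. Of these, Cyp21a1, a steroid hydroxylase, was well above background on all 3 arrays labelled S3d and on none labelled control, at least 5.14-fold higher, with the other sign after normexp (-1.37).

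The circadian clock list held 14 tested genes, of which 7 were lower, 4 higher and 3 not called, with a median of -0.31. Npas2, a relative of Clock that also pairs with Bmal1, differed by -1.49 (adjusted p = 1.2e-04) and Nr1d2, a repressor of the clock's other loop, by -1.33 (adjusted p = 1.6e-04). Nr1d1, the close relative of Nr1d2, differed by 1.05 (adjusted p = 0.0023), and Dbp, a clock output, by 1.60 (adjusted p = 0.0082), with a wide spread over the arrays labelled S3d (SD 0.74, n = 3). Per1 was thus lower with some clock genes while others were higher. The higher ones include its own relatives Per2 (0.36, adjusted p = 0.039) and Per3 (1.53, adjusted p = 4.0e-04). Per3 was well above background on 2 arrays labelled S3d and stood at -0.30 after normexp.

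The heat shock list holds mainly cytosolic genes, but also the mitochondrial Hspd1 and Hspe1 and the enzyme Hmox1. Of 13 tested genes, 7 were lower, 1 higher and 5 not called, beside 34.5% lower and 39.5% higher of all tested probes. The median was -0.54 (-0.33 after quantile normalization). Hmox1, the inducible haem oxygenase, differed by -2.63 (adjusted p = 1.0e-04), and Chordc1, a partner of Hsp90, by -1.51 (adjusted p = 1.7e-04). Hspb8, a small heat shock protein, was the single called gene on the other side (0.66, adjusted p = 6.6e-04). It stood at -0.33 after normexp, still above the median of all tested probes there (-0.69). In the normalized table, by its own labels, 5 heat shock genes were higher in S3d and 3 lower.

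The tissue label held, since all 12 jejunal enterocyte markers on the array were well above background on all 6 arrays. Their summed linear level was 3660 to 4090 on the control-labelled arrays and 1680 to 1730 on those labelled S3d, with 9 markers lower, 1 higher and 2 not called, but their median difference of -0.76 became 0.09 after quantile normalization. The 8 tested leukocyte markers summed to 20.8 to 27.9 and 17 to 19.6, with 6 lower and 2 higher. Smooth muscle markers summed to 124 to 149 and 110 to 130, fibroblast markers to 142 to 156 and 150 to 165, and mast cell markers to 18.8 to 21.1 and 20.1 to 20.8. Goblet cell markers summed to 894 to 943 and 335 to 355, Paneth cell markers to 397 to 438 and 190 to 209, and enteroendocrine markers to 127 to 141 and 73.8 to 80.7. After quantile normalization the median difference went from -0.89 to -0.34 for goblet cell markers and from -1.16 to -0.11 for Paneth cell markers. For enteroendocrine markers it went from -0.81 to -0.31. With the 75th percentile scaling the sums of the epithelial cells were lower on the arrays labelled S3d, as bright probes in general were (median -0.64 in the brightest bin). The part of cell makeup in the member differences was not tested.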

How the data were processed

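The authors deposited, for each of 6 arrays, scanner output of Agilent Feature Extraction 10.7.3.1, whose intensity values are background-subtracted and not normalized between arrays, and 1 table of log2 values whose sorted columns differ by at most 0.0025, so that they were quantile-normalized without centring of probes. The program for that step was not given in the sources used here. Control and outlier spots were left out, spots of a probe were averaged, and log2 processed signal minus the array's 75th percentile was used. The test took probes that stood well above background throughout at least 1 group of 3 arrays (31369 of 41012), and used limma 3.58.1 in R 4.3.3 (lmFit, eBayes, Benjamini-Hochberg over all tested probes), after a check on simulated data. Probes were named through RefSeq accessions (assembly GRCr8). All member probes were named, and from each list the 2 called genes with the most positive and the 2 with the most negative difference among those above background on all 6 arrays, and 1 gene that this rule named is not reported here. Named outside this rule, after the values were seen, were Abcb1a, Cyp21a1, Crhr1, Scnn1g, Per2, Per3, Hspd1 and Hspe1. The members and lists were chosen with earlier results of these data known. Alternatives covered scaling, background correction, filters, outlier spots, the normalized table, the replicate block, the variance model, array weights, the analysis of variance of the methods, averaged probes, a fold threshold and single arrays left out.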

Additional observations from a re-analysis of the deposited data

How the results depend on the processing

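By the labels of the deposited normalized table every member probe changed sign: Nr3c1 stood at -1.04 and -1.43, Nr3c2 at 0.13 and 2.20, Hsd11b1 at -0.03 and -0.39, Hsd11b2 at 0.01, Fkbp5 at 2.56, 2.58 and 2.30, Zbtb16 at 2.15 and 2.72, Tsc22d3 at 0.16 and 1.15, Sgk1 at 1.15, Klf9 at 0.84 and 1.09 and Per1 at 0.88. With no scaling between arrays 9 member probes turned, Nr3c2 to 1.69 and 0.19, Hsd11b2 to 1.81, Tsc22d3 to 1.51 and 0.77, Sgk1 to 0.45, Klf9 to 0.97 and 0.83 and Per1 to 1.04, because the brighter arrays then set the level (30122 of all probes were called). Normexp, run on the median signal since no mean signal was used, turned the brighter Nr3c2 probe to 0.09, Hsd11b2 to 0.25 and the brighter Tsc22d3 probe to 0.22, and lowered the called probes to 1752 in all, to 4 among the members and to 5 among the list genes. Median centring turned the brighter Hsd11b1 probe to -0.17. That probe ranged from -0.05 to 0.03 and Hsd11b2 from -0.08 to 0.03 when single arrays were left out, and no called member lost its call in any of these 6 fits. A fold of at least 1.5 reduced the called probes from 23205 to 16455. The replicate numbers did not pair the arrays (correlations of deviations 0.02, 0.02 and -0.05), and with the replicate block 22215 probes and the same number of member probes, 14, were called. A block for the slide could not be fitted, as neither slide carries both groups. Precision is limited by 3 arrays per group, and signals near background limit the dim probes of Nr3c2 and Zbtb16.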
